A study of Mus musculus with 35 samples.

Results

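The genes described are the nuclear genes of respiratory complexes II to V in the mouse hippocampus after pilocarpine-induced status epilepticus (SE). They were taken by name, as every protein-coding gene identifier in the count table whose mouse symbol is Sdha, Sdhb, Sdhc, Sdhd, Cyc1 or Cycs or begins with Uqcr, Cox4 to Cox8 or Atp5. This gave 52 of 43629 identifiers, of which 4 belong to complex II, 9 to complex III, 1 is cytochrome c, 18 belong to complex IV and 17 to complex V. The other 3 carry such a name without coding for a subunit (Cox4nb, a part of the endoplasmic reticulum membrane complex, Atp5s, and Atp5sl, an assembly factor of complex I). Usmg5 and 2010107E04Rik, small membrane subunits of complex V, were matched by their current symbols Atp5md and Atp5mpl, and 10 pseudogenes of the families were left out. At 1 h and 8 h 50 of the 52 genes had enough counts to be tested, and at 36 h and 120 h 49. Cox8c, the testis form of subunit 8, had 0 counts in each of the 19 libraries, Cox7b2, the testis form of subunit 7b, had 0 to 8 counts per library, and Cox8b, the heart form of subunit 8, was below the minimum at 36 h and 120 h.

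The data are mRNA-seq libraries, made by poly(A) selection, of the left hippocampi of 19 male and female C57BL/6j mice aged 6 to 7 weeks, 1 library to a mouse. All mice received scopolamine first. The SE mice were then injected with pilocarpine (350 mg/kg in the labels, followed by further doses until sustained seizures) and were killed at 1 h (3 mice), 8 h (2 mice), 36 h (3 mice) or 120 h (3 mice), and the control mice received saline, with 2 at 1 h, 3 at 8 h and 3 that serve both 36 h and 120 h. For the controls of 36 h and 120 h the titles say t0, the time label 36 h and the source name 36-120 hour. The labels thus do not settle when these mice were killed. Total counts ranged from 8503816 to 28465548 per library.

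The batch names in the labels bear on every comparison made here. At 1 h SE replicates 1 and 2 and control replicate 2 are from batch G369, and SE replicate 3 and control replicate 1 from batch G511. At 8 h both SE libraries and control replicates 2 and 3 are from batch G317, and control replicate 1 from G511. All 9 libraries of 36 h and 120 h are from batch G545, so that batch and the change from the early to the late times cannot be told apart. Prox1 and Neurod6, markers of granule and pyramidal neurons, were detected in every library (67.8 to 210.9 and 108.0 to 259.2 CPM, read counts scaled to the same library size). In 2 libraries the counts of sex-linked genes went against the sex in the study's table. By these counts sex was not balanced at 36 h. Xist had 0 counts in each of the 3 SE libraries of 36 h, against 3, 8980 and 13899 counts in their controls. The mean log2 CPM of 20 choroid plexus markers was 5.35 and 5.26 in the SE mice of 8 h, against 3.17, 5.54 and 3.84 in their controls. It was 5.46, 5.40 and 0.28 in the SE mice of 36 h and 0.66, 0.82 and 5.62 in those of 120 h, against 0.63 to 0.99 in their controls.

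Complex II oxidizes succinate and hands the electrons to ubiquinone, complex III passes them on to cytochrome c, complex IV uses them to reduce oxygen, and complex V, the ATP synthase, is driven by the proton gradient that complexes III and IV help to build. All subunits of complex II are coded in the nucleus, whereas complexes III, IV and V also hold subunits that are coded in the mitochondrial genome. Neurons rely on these complexes for most of their ATP. Transcription of the nuclear genes is known to involve the nuclear respiratory factors NRF1 and GABP, and the coactivator Ppargc1a acts through them. Several subunits of complexes IV and V have more than a single gene, with common forms next to forms best known from heart, muscle or testis.

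The start regions of 3 genes on which the results turn are shown because they hold words bound by these factors. RefSeq promoters of GRCm38.p6 (250 bases before to 50 after the start of the gene) were at hand for 37 of the 49 subunit genes. In the sequences capitals mark GCATGCGC (NRF1), CCGGAAG (GABP and other ETS factors) and TGACGTCA (CREB), read on both strands, so that CCGGAAG on the reverse strand appears as CTTCCGG. The promoters run 5′ to 3′ on the strand of the gene, at chr6:50566520-50566819 (minus strand) for Cycs, chr5:115348909-115349208 (minus strand) for Cox6a1 and chr19:7217567-7217866 (minus strand) for Cox8a.
Cycs: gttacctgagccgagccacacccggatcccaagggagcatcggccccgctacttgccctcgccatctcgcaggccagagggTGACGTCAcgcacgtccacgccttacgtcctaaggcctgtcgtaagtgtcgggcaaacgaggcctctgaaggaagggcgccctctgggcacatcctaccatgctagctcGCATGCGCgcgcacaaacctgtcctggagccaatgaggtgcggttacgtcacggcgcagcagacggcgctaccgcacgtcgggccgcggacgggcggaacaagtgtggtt
Cox6a1: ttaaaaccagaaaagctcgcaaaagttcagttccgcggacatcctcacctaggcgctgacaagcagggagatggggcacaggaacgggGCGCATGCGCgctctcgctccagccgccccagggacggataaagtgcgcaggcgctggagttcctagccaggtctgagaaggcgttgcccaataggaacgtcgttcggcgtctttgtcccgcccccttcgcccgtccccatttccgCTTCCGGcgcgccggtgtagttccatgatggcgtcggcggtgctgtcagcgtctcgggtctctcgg
Cox8a: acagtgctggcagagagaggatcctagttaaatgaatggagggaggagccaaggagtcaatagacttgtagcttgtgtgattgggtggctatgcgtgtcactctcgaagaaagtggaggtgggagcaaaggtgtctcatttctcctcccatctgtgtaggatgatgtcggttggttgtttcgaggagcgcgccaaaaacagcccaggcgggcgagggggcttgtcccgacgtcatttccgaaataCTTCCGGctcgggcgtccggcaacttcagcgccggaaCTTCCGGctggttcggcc
Cycs, the electron carrier itself, has the NRF1 word 60 bases before its start and the CREB word 169 bases before. Cox6a1, the common form of subunit 6a, has the NRF1 word on both strands, 162 and 160 bases before the start, and the GABP word 16 bases before on the reverse strand. Cox8a, the common form of subunit 8, has the GABP word on the reverse strand 5 bases before and 32 bases after the start. Over the 37 promoters the GABP word was present in 13 (35.1%, against 9.93% of 27025 gene promoters and 12.9% of the 17491 of protein-coding genes). The NRF1 word was present in 8 (21.6%, against 3.05% and 3.93%), and the 8 genes were Cycs, Cox6a1, Sdhb, Uqcr11, Uqcrc1, Atp5g2, Atp5k and Atp5l. The YY1 word AAGATGGC was present in 3 (8.11%, against 3.19% and 3.57%), the ERR word TCAAGGTCA in 2 (5.41%, against 0.466% and 0.377%) and the CREB word in 2 (Cycs and Uqcrfs1, 5.41%, against 2.03% and 2.54%). In the sequences shown, no match to a word overlaps a match to another word, and a match describes the letters, not a bound site.

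Control hippocampus expressed the common forms of the subunits at high levels and the tissue-restricted forms at low levels. Levels were compared per kilobase of coding transcript, as the median over the 8 control libraries. In complex II Sdha, the flavoprotein that oxidizes succinate, was highest with 120.6 CPM per kilobase and Sdhd, a membrane anchor, lowest with 39.3. In complex III the small subunit Uqcr11 had the highest median with 242 and the Rieske protein Uqcrfs1 the lowest with 52.9 CPM per kilobase. Uqcr11 was the highest gene of complex III only in control replicates 2 and 3 of 8 h, and in the other 6 controls the hinge protein Uqcrh was (median 216). Cycs had 17.4 CPM per kilobase. In complex IV Cox4i1, the common form of subunit 4, had the highest median with 592 and was highest in 5 of the 8 controls, followed by Cox8a with 389, Cox6c with 376 and Cox6a1 with 359.6 CPM per kilobase, whose ranges over the control libraries overlap. Taken per kilobase of all exons instead, Sdhc (18.6), Uqcrq (42.6) and Atp5g1 (23.3) were lowest in complexes II, III and V, and Usmg5 (339) was highest in complex V. On the coding transcript scale Atp5b, the catalytic beta subunit, had 531 and Atp5g2, a gene for the c subunit of the proton ring, 38.4 CPM per kilobase.

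In most sets of alternative forms a single gene made up nearly all of the transcripts. Over all 19 libraries Cox4i1 made up a median of 99.7% of the subunit 4 transcripts per length and Cox4i2, the lung form, 0.296%. Cox6a1 made up 98.6% and Cox6a2, the muscle form, 1.43%, and Cox6b1 made up 97.6% and the testis form Cox6b2 2.41%. Cox8a made up 99.1% of subunit 8 and Cox8b 0.866%. The set of subunit 7a was shared, with 59.2% for Cox7a2, 38.7% for Cox7a2l, a relative of subunit 7a, and 1.87% for the muscle form Cox7a1. The c subunit was shared as well, with 55.6% for Atp5g3, 35.2% for Atp5g1 and 9.29% for Atp5g2. The share of Cox7a2l was largest in control replicate 2 of 8 h, at 58.7%, which is also where Atp5g1 reached its largest share of 55.2%.

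Of the 4 times the median of the genes was farthest from 0 at 8 h, where its sign depended on which controls were used. The median log2 fold change of SE over control was -0.03 in the 1 h mice, -0.24 in the 8 h mice, 0.02 by 36 h and 0.03 by 120 h, and the median over all genes tested lay between -0.01 and 0.01 at each time. The median at 8 h was 0.16 without control replicates 2 and 3, -0.08 without control replicate 3 alone and -0.45 without control replicate 1. At 8 h the 4 complex II genes had a median of 0.25, the 9 complex III genes -0.17, Cycs -1.01, the 16 complex IV genes -0.38 and the 17 complex V genes -0.16. At 1 h these medians were 0.01, -0.05, -0.05, -0.08 and -0.03 in the same order, at 36 h -0.05, 0.05, 0.01, 0.10 and 0.02, and at 120 h -0.02, 0.03, -0.05, 0.05 and 0.03. In whole tissue, fewer cells with a transcript and less of it per cell cannot be told apart.

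**Figure D1:**
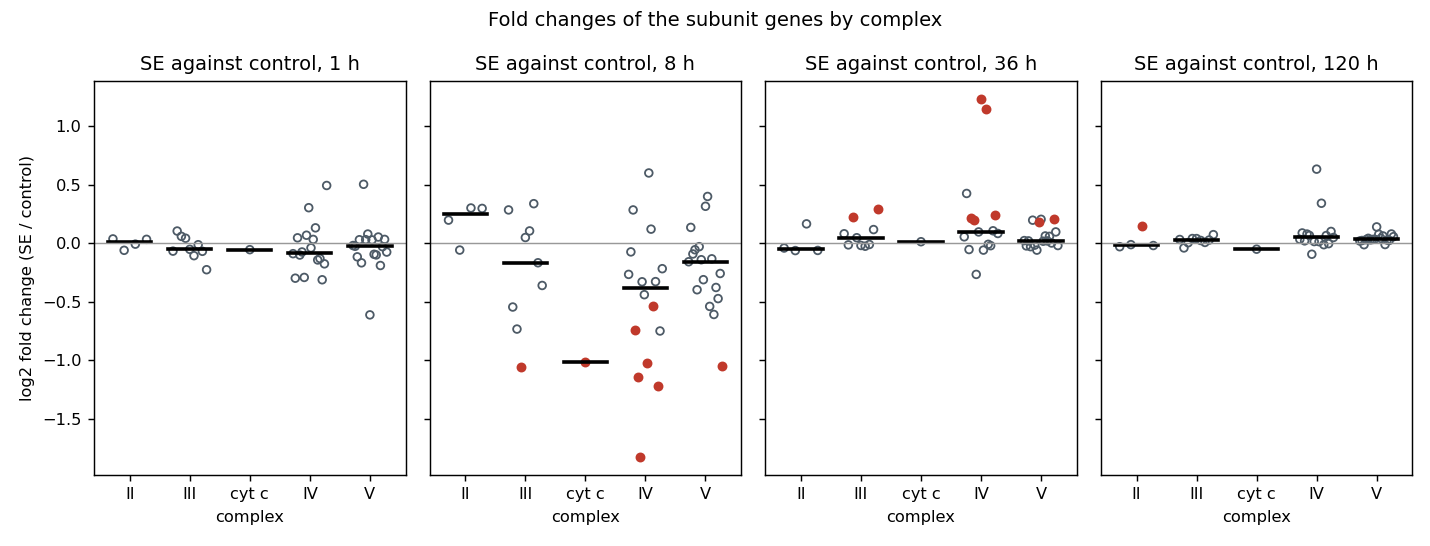
Log2 fold change of SE over control (vertical axis) for each subunit gene tested, by complex and time, from edgeR's quasi-likelihood fit of that time. Filled red points have an unadjusted p under 0.05, open grey points do not, and black bars mark the median of each complex. The points spread most at 8 h, where the complex IV median is -0.38 and the complex II median 0.25, and mostly lie close to 0 at 120 h.

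With group as the only term, none of the genes passed an adjusted p of 0.05 in edgeR's quasi-likelihood test at any of the 4 times, whereas with batch as a further term 22 were lower and 1 was higher at 8 h (7.54% and 5.98% of all genes). At 1 h 0 of 50 passed, against 0.0799% of all genes higher and 0% lower, and at 8 h 0 of 50, against 0% in both directions. At 36 h 0 of 49 passed, against 0.0252% higher and 0% lower, and at 120 h 0 of 49, against 0.025% higher and 0.0313% lower. By unadjusted p under 0.05, 1 gene was higher and 0 lower at 1 h (2.32% and 2.07% of all genes), 0 were higher and 9 lower at 8 h (3.95% and 5.52%), 9 were higher and 0 lower at 36 h (5.29% and 2.6%), and 1 was higher and 0 lower at 120 h (4.54% and 5.06%). The likelihood ratio test of edgeR and DESeq2 passed the same 2 genes at 8 h, Uqcrb and Cycs, both lower (0.397% of all genes were lower by the likelihood ratio test), and 0 at the other times.

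Uqcrb, a small subunit of complex III that lies next to cytochrome b, stood at about the same level in 17 libraries and lower in the SE mice of 8 h. It is at chr13:67001553-67006314 (minus strand, NCBIM37) and had 31.2 and 37.3 CPM in the SE mice of 8 h, against 61.1, 80.5 and 71.3 CPM in the controls of 8 h. At 1 h it had 87.6, 61.1 and 74.7 CPM in SE mice, against 69.1 and 75.2 CPM in controls. It had 75.7, 72.6 and 73.2 CPM in SE mice of 36 h and 75.8, 70.3 and 76.0 CPM in those of 120 h, against 67.6, 81.3 and 68.8 CPM in their controls. Both SE libraries of 8 h, each from batch G317, therefore lay below each of the other 17 libraries. Those include controls of 8 h from G317 and from G511. The log2 fold change at 8 h was -1.06 ± 0.19 (SE of the estimate), or 0.480 of control, with an adjusted p of 0.264 by edgeR's quasi-likelihood test. The adjusted p was 0.0018 by the likelihood ratio test, and it ranged from 0.0002 to 0.992 over the 15 alternatives, 7 of which passed, while the log2 fold change ranged from -1.22 to -0.85. The gene Gm10767 lies on the opposite strand of Uqcrb, and whether counting used the strand is not given in the sources used here.

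Cycs, the somatic cytochrome c that carries electrons to complex IV and signals apoptosis when released, showed the same order. It is at chr6:50512562-50516537 (minus strand, NCBIM37) and had 27.9 and 26.8 CPM in the SE mice of 8 h, against 40.4, 70.1 and 53.6 CPM in the controls of 8 h. At 1 h it had 39.3, 35.0 and 38.7 CPM in SE mice, against 39.2 and 39.0 CPM in controls. In the late libraries it had 54.9, 53.1 and 59.8 CPM in SE mice of 36 h and 56.2, 54.6 and 50.9 CPM in those of 120 h, against 56.7, 56.7 and 55.4 CPM in controls. The SE mice of 8 h were again below all other libraries, but the controls of 8 h themselves ranged widely. The log2 fold change at 8 h was -1.01 ± 0.24, with an adjusted p of 0.410 by the quasi-likelihood test and 0.0432 by the likelihood ratio test. It was -0.59 (adjusted p = 0.177) when control replicates 2 and 3 were left out, and 6 of 15 alternatives passed.

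The third gene with both SE libraries of 8 h below the other 17 was Atp5s, which is no subunit, with 10.2 and 10.4 CPM in SE mice against 10.6, 13.6 and 10.7 CPM in the controls of 8 h. These 3 are 6% of the 50 genes, against 2.78% of 17415 genes, and 0 of the 50 lay above the other 17, against 2.6%.

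**Figure D2:**
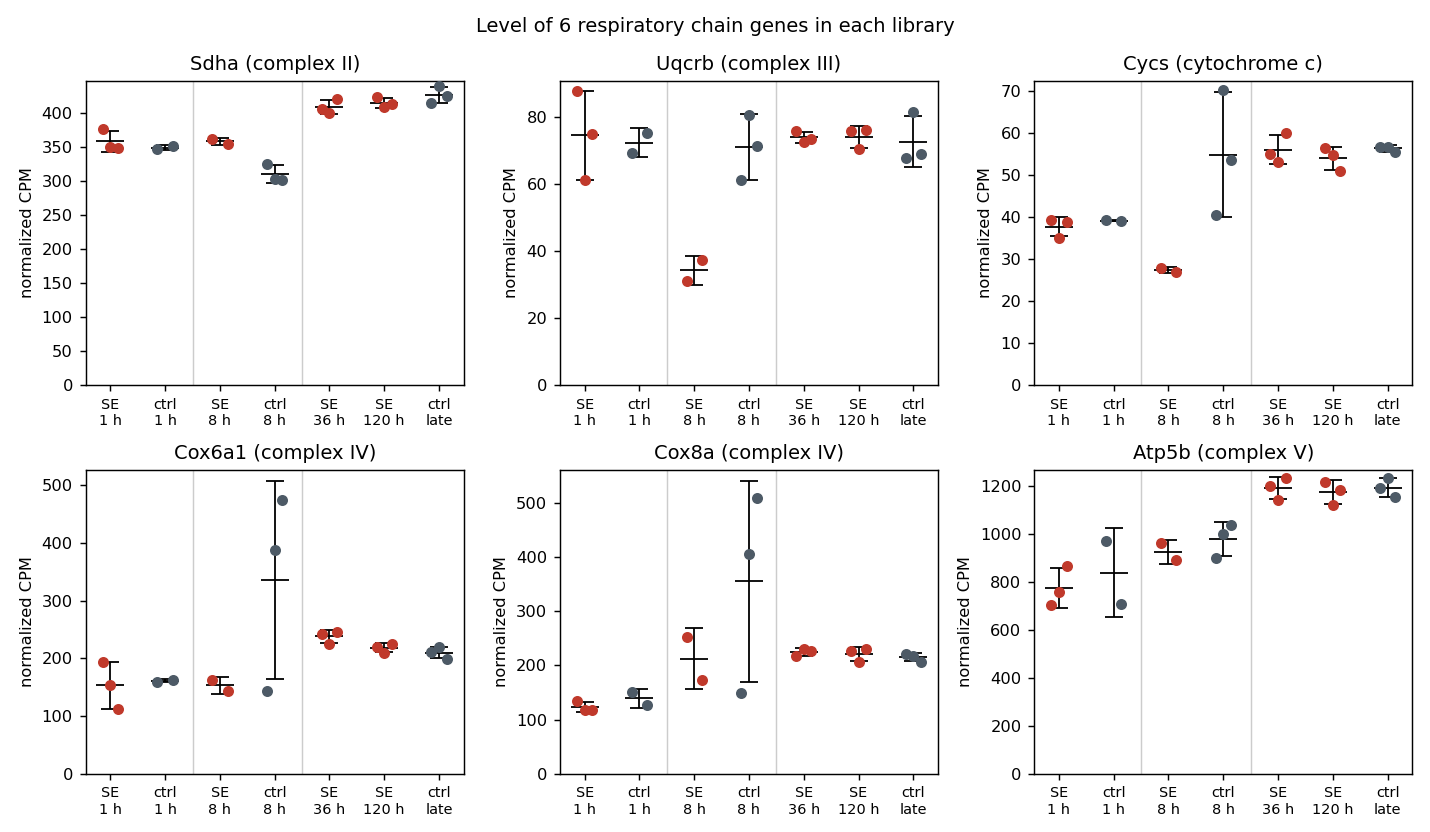
Level in CPM (vertical axis) in each of the 19 libraries, by group along the horizontal axis, for 6 genes. Points are libraries, bars the mean ± SD, ctrl late the controls of 36 h and 120 h, SE mice red and control mice grey. Uqcrb and Cycs are lowest in the SE mice of 8 h, and Cox6a1 is highest in 2 of the 3 controls of 8 h.

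For many other genes of complexes IV and V the lower values of SE mice at 8 h rested on 2 of the 3 controls. Cox6a1 had 162.8 and 142.9 CPM in SE mice of 8 h, against 143.6 CPM in control replicate 1 and 388 and 475 CPM in control replicates 2 and 3. Over the other libraries, which are from batches G369, G511 and G545, Cox6a1 ranged from 112 to 246 CPM. Control replicates 2 and 3, the only controls from G317, the batch of the SE libraries, lay above that range. The part of batch was not tested. Cox8a had 251.7 and 173.4 CPM in SE mice of 8 h, against 149.5 CPM in control replicate 1 and 406 and 508 CPM in replicates 2 and 3. Cox7c, a small subunit, had 26.5 and 26.8 CPM in SE mice of 8 h, against 23.5, 73.9 and 87.7 CPM in controls, and Cox6c had 112.7 and 105.6 CPM, against 98.7, 260.3 and 301.5 CPM. The muscle form Cox6a2 had 1.65 and 3.44 CPM in SE mice of 8 h, against 2.39, 9.97 and 16.3 CPM in controls. In complex V Usmg5 had 61.5 and 53.5 CPM in SE mice of 8 h, against 58.9, 139.8 and 155.0 CPM in controls. In all of these the SE libraries lay near control replicate 1, or above it in Cox8a, and below replicates 2 and 3.

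The log2 fold changes at 8 h were -1.14 ± 0.42 for Cox6a1, -1.22 ± 0.46 for Cox7c, -1.82 ± 0.70 for Cox6a2, -1.02 ± 0.39 for Cox6c and -1.05 ± 0.36 for Usmg5, with adjusted p of 0.495 to 0.502 by the quasi-likelihood test. Cox5b and Cox7a2l, with groups that do not overlap, had -0.74 ± 0.29 and -0.54 ± 0.22 (adjusted p = 0.505 for both). Cox5b had 107.6 and 81.8 CPM in SE mice of 8 h, against 108.5, 137.7 and 223.6 CPM in controls, so that SE replicate 1 and control replicate 1 nearly met. Over all members, the groups of 8 h did not overlap in 2 higher genes (14.6% of all genes) and 5 lower genes (13.4%).

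With batch as a covariate the SE effect at 8 h is set against control replicates 2 and 3 alone, and the result changed. In that fit 22 of the 50 genes were lower (7.54% of all genes) and 1 was higher (5.98%). The 22 were 10 of complex IV, 7 of complex V, 4 of complex III and Cycs, with log2 fold changes between -2.28 for Cox6a2 and -0.44 for Atp5o, and the higher gene was Cox4nb (0.47), which is no subunit. Uqcrb had -1.15 (adjusted p = 0.0007) and Cycs -1.19 (adjusted p = 0.0011) there by edgeR's quasi-likelihood test. Against control replicate 1 alone, which is from another batch, the order turned. With replicates 2 and 3 left out, 6 genes were higher (1.64% of all genes) and 1 lower (1.38%), where the lone control was assumed to vary like the SE libraries. The 6 were Uqcr11 (0.93), Atp5g1 (0.76), Atp5g3 (0.59), Cyc1 (0.57), Atp5d (0.57) and Cox4i1 (0.54), and the lower gene was Uqcrb (-0.85 ± 0.21, adjusted p = 0.0062). Uqcr11, Atp5g1, Atp5d and Cox4i1 were thus lower against the controls of their own batch and higher against the other control, and Uqcrb was lower against both.

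Both SE libraries of 8 h were below control replicates 2 and 3 and above control replicate 1 in 17 of the 50 genes (34%, against 8.28% of 17415 genes), among them Cox4i1, Cox6c, Cox7c, Cox8a, Uqcr11 and Atp5g1. They were below all 3 controls in 5 genes (10%, against 13.4%) and above all 3 in Sdha and Atp5a1 (4%, against 13.9%). Whatever their place against replicate 1, they were below control replicates 2 and 3 in 28 of 50 genes (56%, against 27.5% of all genes) and above them in 5 (10%, against 27.8%), which were Sdha, Sdhc, Uqcrc2, Atp5a1 and Cox4nb. Both were below control replicate 1 in 9 genes (18%, against 35.4%) and above it in 30 (60%, against 36.9%). The median difference in log2 CPM was -0.43 from control replicates 2 and 3 and 0.18 from control replicate 1. By complex the difference from replicates 2 and 3 was 0.23 in II, -0.12 in III, -0.75 in IV and -0.31 in V, and that from replicate 1 was 0.12, 0.26, 0.18 and 0.22. Control replicates 2 and 3 lay above each of the other 17 libraries in 7 genes (14%, against 7.08%), Cox6a1, Cox6a2, Cox6c, Cox7c, Cox8a, Atp5g1 and Usmg5. The part of batch in these differences was not tested, since control replicate 1 is the only library of 8 h outside G317.

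**Figure D3:**
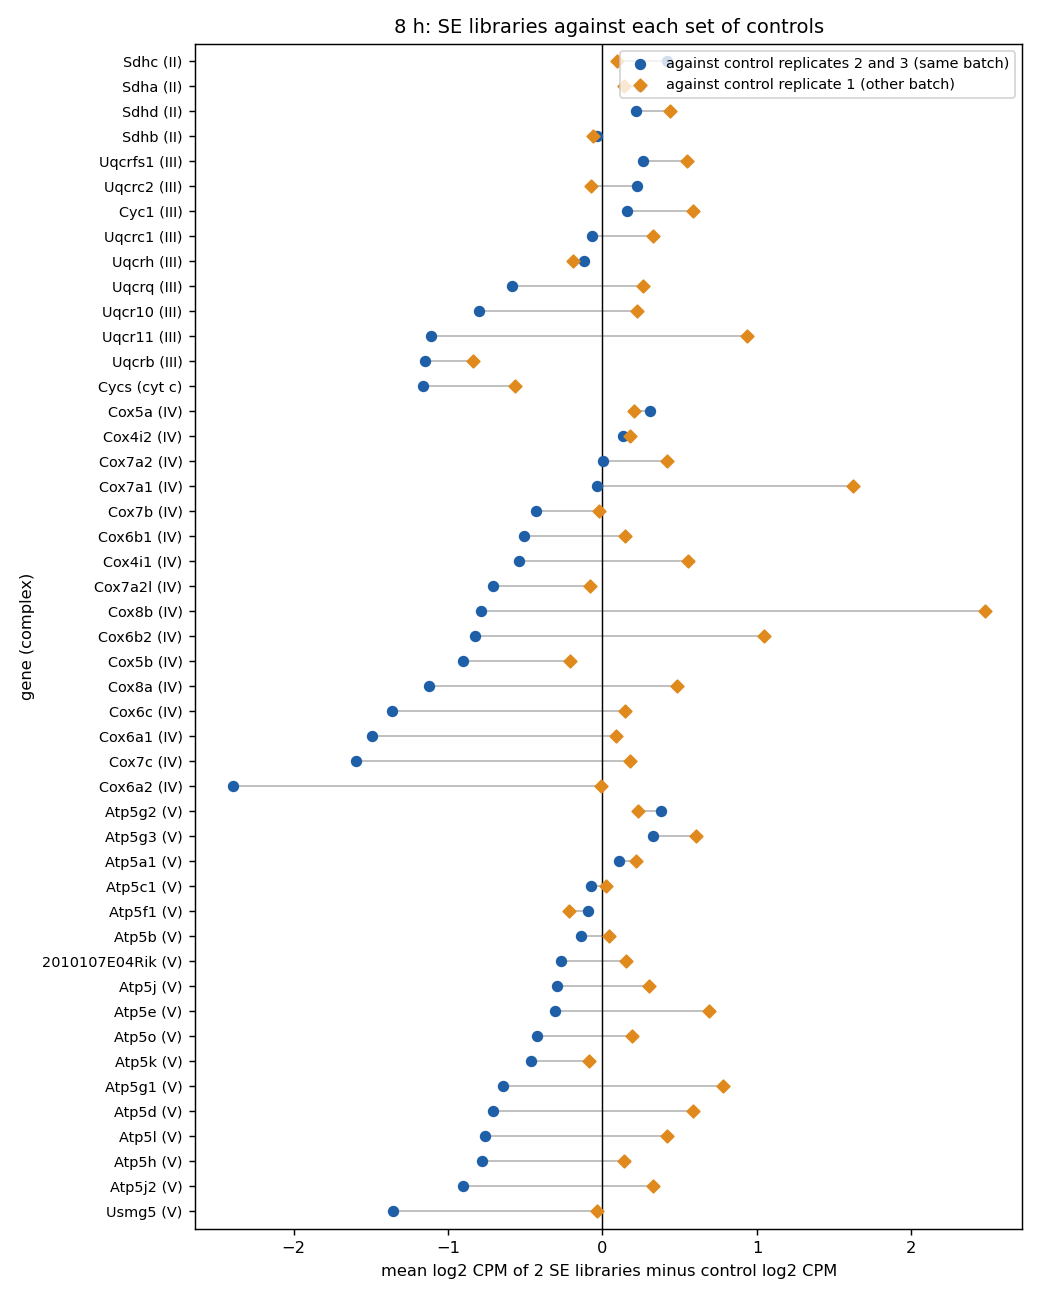
Difference in log2 CPM between the mean of the SE libraries of 8 h and control replicates 2 and 3 (blue circles, the same batch) or control replicate 1 (orange diamonds, another batch), for each gene by complex. The medians over all genes are -0.43 and 0.18. Uqcrb and Cycs are below 0 against both.

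Complex II had a positive median at 8 h, and none of its genes passed the threshold. Sdha had 363 and 355 CPM in SE mice of 8 h, against 326, 304 and 301 CPM in controls, and the groups did not overlap. Its log2 fold change was 0.20 ± 0.14 (adjusted p = 0.667 by the quasi-likelihood test). The anchors Sdhc and Sdhd had 0.30 ± 0.20 and 0.30 ± 0.21 (adjusted p = 0.636 and 0.654), and the iron-sulfur protein Sdhb had 84.6 and 78.8 CPM in SE mice of 8 h, against 85.4, 78.8 and 89.0 CPM in controls. In complex III the Rieske gene Uqcrfs1 stood at 0.34 ± 0.19 (log2 fold change, adjusted p = 0.593), which is the opposite direction to Uqcrb of the same complex. In complex V Atp5a1, the alpha subunit of F1, had 854 and 781 CPM in SE mice of 8 h, against 702, 748 and 766 CPM in controls, and Atp5g3 had 0.40 ± 0.19 (adjusted p = 0.562). Atpif1, the inhibitor of the ATP synthase and not among the 52, had 78.4 and 64.2 CPM in SE mice of 8 h, against 62.3, 180.5 and 236.9 CPM in controls, so that it too was far below control replicates 2 and 3 and not below replicate 1.

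At 8 h the values of short and long transcripts were set side by side. The 31 tested subunits with a coding transcript under 800 nt had a median log2 fold change of -0.36, with 26 negative, and the 16 of 800 nt or more one of -0.00, with 8 negative, and over all genes tested the medians were -0.15 and 0.01. The direction turned with the control. The mean log2 CPM of the short subunit genes was 5.39 and 5.12 in SE mice of 8 h, against 4.89 in control replicate 1 and 5.82 and 6.00 in control replicates 2 and 3. The boundary of 800 nt was chosen after values had been seen, and the part of transcript length in the result was not tested. Of the comparison families, 42 genes of complex I had a median of -0.24 and 91 genes of cytosolic ribosomal proteins one of -0.26 at 8 h, and both rested on the same 2 controls. The mean log2 CPM of complex I was 5.42 and 5.19 in SE mice of 8 h, against 5.16 in control replicate 1 and 5.64 and 5.90 in replicates 2 and 3. That of the ribosomal proteins was 5.49 and 5.41 in SE mice of 8 h, against 5.43 in control replicate 1 and 5.74 and 5.93 in replicates 2 and 3. Choroid plexus markers had positive values at 8 h in 20 of 20 genes (median 0.72), and neuronal markers had a median of -0.18. The mean log2 CPM of the neuronal markers was 9.48 and 9.47 in SE mice, against 9.45 in control replicate 1 and 9.65 and 9.87 in replicates 2 and 3. That of microglia markers was 4.56 and 4.47, against 4.74, 4.81 and 4.76 in controls. Oligodendrocyte markers stood at 8.41 and 8.57, against 8.76, 8.79 and 8.66. For astrocyte and endothelium markers the groups overlapped. The mean log2 CPM of a separate list of 8 hippocampal neuron markers was 6.63 and 6.85 in SE mice, against 6.83, 6.57 and 6.89 in controls. In that list Neurod6 had 108.0 and 126.7 CPM in SE mice, against 190.7, 190.8 and 208.9 CPM in controls. Prox1 had 96.9 and 130.8 CPM, against 158.6, 95.4 and 114.9 CPM, so that its groups overlapped. The part of these cell types in the results of 8 h was not tested. When the choroid plexus score entered the model Uqcrb had -1.22 (adjusted p = 0.297) and Cycs -1.33 (adjusted p = 0.213) by the quasi-likelihood test.

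The difference between the SE effects of 2 times was tested in a fit of all 19 libraries, and 1 of the 50 genes passed. The SE effect on Uqcrb was lower at 8 h than at 1 h by a log2 difference of -1.09 ± 0.21 (adjusted p = 0.0421 by the quasi-likelihood test, where 0.126% of all genes were lower and 0.023% higher). It was higher at 36 h than at 8 h by 1.07 ± 0.19 (adjusted p = 0.0346, where 0.0804% of all genes were higher and 0.0632% lower). Both calls rest on the 2 SE libraries of 8 h. The second was lost when the choroid plexus score entered the model (adjusted p = 0.0546), and each was lost when control replicates 2 and 3 of 8 h were left out (-0.88, adjusted p = 0.161, and 0.88, adjusted p = 0.190). Of 10 libraries left out in turn, control replicate 1 and SE replicates 1 and 3 of 1 h, control replicates 2 and 3 and SE replicate 1 of 8 h each ended the first call (adjusted p = 0.0614 to 0.317), with differences of -1.24 to -0.95. The second held in 2 of 11 cases, without control replicate 1 of 8 h (adjusted p = 0.0010) and without SE replicate 2 of 8 h (adjusted p = 0.0322), and each of the other 9 libraries ended it, with differences of 0.95 to 1.22. Cycs had -0.95 (adjusted p = 0.117) and 0.99 (adjusted p = 0.0600) in the same contrasts. By unadjusted p under 0.05, 1 gene had a higher and 5 a lower SE effect at 8 h than at 1 h (6.23% and 6.05% of all genes), and 12 had a higher and 3 a lower SE effect at 36 h than at 8 h (7.09% and 7.02%). The 3 lower ones were Sdha (-0.27 ± 0.11), Uqcrfs1 (-0.38 ± 0.16) and Cox4nb (-0.38), and the complex IV median of 36 h minus 8 h was 0.67, against -0.22 in complex II. Between 8 h and 1 h the c-subunit gene Atp5g2 had 0.93 ± 0.36 (adjusted p = 0.301), where control replicate 1 of 1 h had 29.4 CPM against 11.3 CPM in control replicate 2. The SE effects of 120 h and 36 h, which share their controls, differed in 0 of 50 genes, also by unadjusted p under 0.05 and by the likelihood ratio test and DESeq2 (0.0345% of all genes were higher and 0.0459% lower by adjusted p, 1.98% and 2.23% by unadjusted p), and the median difference was -0.01.

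At 36 h the genes with the smallest p were higher in SE mice, and by little except for forms of low level. Cox7a1, the muscle form of subunit 7a, had 2.76, 2.20 and 2.35 CPM in SE mice of 36 h, against 1.13, 0.782 and 1.40 CPM in controls, and the groups did not overlap. Its log2 fold change was 1.14 ± 0.30 (adjusted p = 0.385 by the quasi-likelihood test and 0.0510 by the likelihood ratio test). Uqcrq, a small subunit of complex III, had 113.5, 99.0 and 120.1 CPM in SE mice of 36 h, against 90.4, 97.6 and 88.0 CPM in controls (0.29 ± 0.09, adjusted p = 0.423). The groups also stood apart for Uqcr11, Cox6a1 and Cox7c, with log2 fold changes of 0.22 ± 0.08, 0.20 ± 0.07 and 0.24 ± 0.09 (adjusted p = 0.502 to 0.559). These 5 were all of the genes whose groups did not overlap at 36 h, each higher in SE mice (6% of all genes were higher and 8.28% lower in this way). In complex V Atp5g1 and Atp5l had 0.18 ± 0.08 and 0.21 ± 0.09 (adjusted p = 0.625 and 0.632), and in complex II Sdhc had 0.17 ± 0.09 (adjusted p = 0.719) with groups that overlapped and Sdhb -0.06 ± 0.09.

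Among the forms of low level, Cox6b2 and Cox8b were high in the late libraries in which choroid plexus markers were high. Those markers had positive values at 36 h in 17 of 17 tested (median log2 fold change 4.21), and the 20 markers summed to 200.3 to 9183 CPM in SE mice of 36 h, against 261 to 373 CPM in controls. The marker Otx2 was at 0.229 CPM in the SE library of 36 h where it was lowest. Cox6b2 had 6.12 and 7.13 CPM in SE replicates 1 and 2 of 36 h, where the score was high, and 1.72 CPM in SE replicate 3, where it was low. At 120 h it had 1.15, 2.12 and 6.83 CPM in SE mice, with the high value in the library of high score, against 2.05, 2.41 and 2.00 CPM in the controls of both times. Cox8b had 3.20, 4.13 and 0 CPM in SE mice of 36 h and 0.274, 0.373 and 7.10 CPM in those of 120 h, against 0.196 to 0.218 CPM in controls.

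The log2 fold change of Cox6b2 at 36 h was 1.23 ± 0.44 (adjusted p = 0.534 by the quasi-likelihood test). It was -0.12 with the score as a covariate and -0.32 without the libraries of high score, whereas Cox7a1 kept 1.10 and 1.06 in the same settings. Without SE replicate 3 of 36 h Cox6b2 and Cox8b passed the threshold (1.65, adjusted p = 0.0012, for Cox6b2). For Uqcrq, Uqcr11, Cox6a1, Cox7c and Cox7a1, SE replicate 3, with a score of 0.28, was above each control. In the early libraries Cox8b and Cox6b2 were lowest in control replicate 1 of 8 h (score 3.17), with 0.211 and 1.41 CPM. They were highest in control replicate 2 of 8 h (score 5.54), with 2.98 and 6.24 CPM. SE replicate 1 of 1 h, with a score of 6.20, had 1.66 and 3.61 CPM. Control replicate 3 of 8 h, with a score of only 3.84, had more, with 2.15 and 4.50 CPM. The early libraries thus did not follow the order of the score. The part of choroid plexus tissue was not tested for any of these genes, Cox6b2 and Cox8b included.

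**Figure D4:**
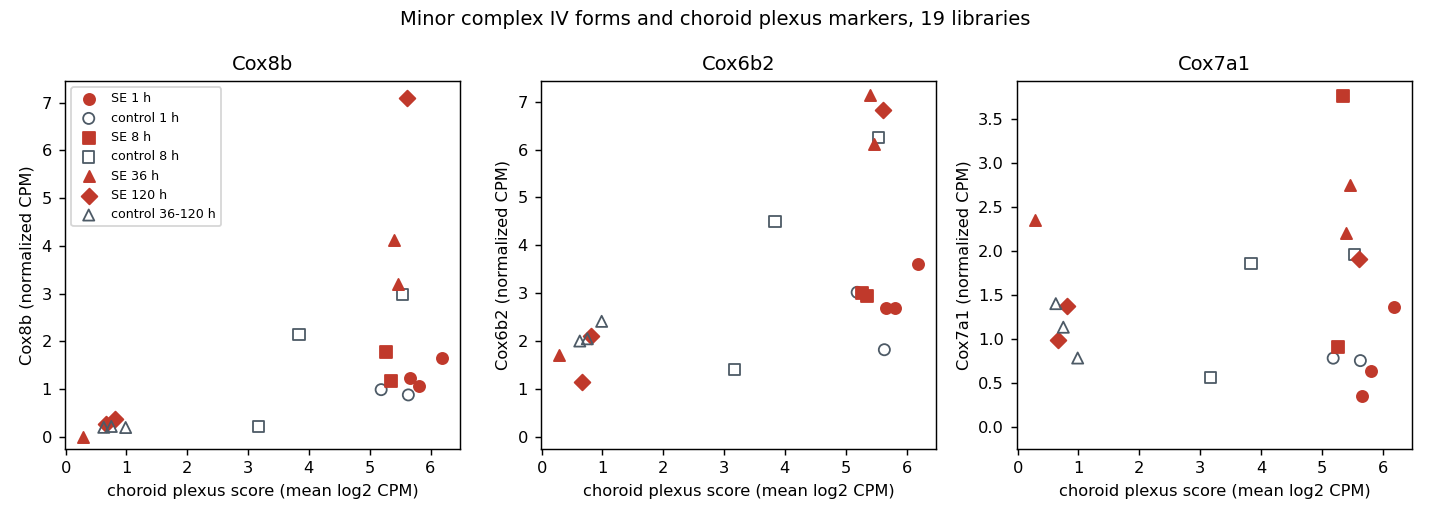
Level in CPM (vertical axis) of Cox8b, Cox6b2 and Cox7a1 in each library against the choroid plexus score, the mean log2 CPM of 20 markers (horizontal axis), with SE mice and controls of each time marked. In the 9 late libraries Cox8b is at 3.20 CPM or more only in the 3 SE libraries with a score above 5, and at 0.373 CPM or less in the other 6.

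At 120 h the levels in SE and control mice were close. Sdhc had 83.1, 81.6 and 81.2 CPM in SE mice of 120 h, against 74.2, 74.8 and 74.7 CPM in controls. It was the 1 gene whose groups did not overlap (6.33% of all genes were higher and 9.1% lower in this way), with a log2 fold change of 0.15 ± 0.04 (unadjusted p = 0.0100, adjusted p = 0.373 by edgeR's quasi-likelihood test). Of the others, Sdha had -0.03 ± 0.06 (adjusted p = 0.900), and Uqcrq had 0.07 ± 0.06, Uqcrc1 0.04 ± 0.06, Cox7c 0.10 ± 0.07, Cox7a2l 0.07 ± 0.05, Atp5g2 0.14 ± 0.08 and Atp5g3 0.08 ± 0.05 (adjusted p = 0.615 to 0.854), and Cycs had -0.05 ± 0.06 (adjusted p = 0.821). Of the 49 genes 38 had a positive and 11 a negative value.

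At 1 h the genes stayed near control as well. The 1 gene with an unadjusted p under 0.05 was Cox4nb (0.38 ± 0.15, adjusted p = 0.999 by the quasi-likelihood test), which is no subunit. The 2 with the smallest p of each complex were Sdhb (-0.06 ± 0.12) and Sdha (0.04 ± 0.09), Uqcrq (-0.23 ± 0.22) and Uqcrc2 (-0.11 ± 0.12), Cox8a (-0.18 ± 0.12) and Cox7c (-0.31 ± 0.28), and Atp5g2 (-0.61 ± 0.34) and Atp5e (0.50 ± 0.32), all with an adjusted p of 0.999. With batch as a covariate 0 of 50 genes passed at 1 h, and 1 was higher and 0 were lower by unadjusted p under 0.05 (2.84% and 1.88% of all genes). Within batch G369 (2 SE mice and 1 control) the median difference in log2 CPM was 0.02, and within G511 (1 of each) it was -0.13. The groups of 1 h did not overlap in 3 higher genes (9.91% of all genes) and 1 lower gene (8.55%).

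Of the subunits that mitochondria code themselves, mt-Cytb, mt-Co1, mt-Co2 and mt-Atp6 had lower values in SE mice of 8 h than in each of the 3 controls. The groups overlapped for mt-Co3, with 24.7 and 28.5 CPM in SE mice of 8 h, against 21.8, 30.0 and 20.6 CPM in controls. They also overlapped for mt-Atp8, which was near 0, with 1.06 and 0.253 CPM, against 0.845, 0.0932 and 0.293 CPM. mt-Cytb, the cytochrome b of complex III, had 5488 and 6235 CPM in SE mice of 8 h, against 13557, 17111 and 21105 CPM in controls. mt-Co1, the catalytic subunit of complex IV, had 12675 and 14348 CPM in SE mice of 8 h, against 22101, 31323 and 36934 CPM in controls. In both genes the SE libraries also lay far below control replicate 1. The log2 fold change was -1.57 ± 0.20 for mt-Cytb (unadjusted p = 2.9e-05, adjusted p = 0.121 by edgeR's quasi-likelihood test) and -1.17 ± 0.21 for mt-Co1 (adjusted p = 0.264). Of the 6 such genes 4 were lower with an unadjusted p under 0.05 (5.52% of all genes were lower in this way) and the median was -1.06. The SE effect on mt-Cytb was lower at 8 h than at 1 h by -1.71 ± 0.30 (adjusted p = 0.0364 by the quasi-likelihood test). In that contrast 0.126% of all genes were lower and 0.023% higher. The alternative settings were read only for the nuclear genes, so whether this call holds in them was not examined. At 36 h and 120 h mt-Cytb had 5089 to 6238 CPM and 6499.7 to 6843 CPM in SE mice, against 6148 to 6733 CPM in controls.

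Genes that assemble or regulate these complexes were tested in the same fits, in which 0 of all genes passed at 8 h. Of 33 assembly factors tested at 8 h, 10 had positive and 23 negative values (median -0.08), with 2 lower by unadjusted p under 0.05, where 5.52% of all genes were lower. These were Fam36a (Cox20, which handles a subunit of complex IV, -1.71 ± 0.43) and Bcs1l, which inserts the Rieske protein into complex III (-0.60 ± 0.20), with adjusted p of 0.464 and 0.495. At 1 h Cox17, a copper chaperone of complex IV, had -1.42 ± 0.35 (adjusted p = 0.710). Of the 17 transcription factors and coactivators the median was -0.06 at 8 h, and Nrf1, whose word stands in the Cycs promoter, had 0.58 ± 0.25 (adjusted p = 0.519). At 36 h the smallest p of each list belonged to Ttc19, which acts in complex III (-0.23 ± 0.07, adjusted p = 0.424), and to Esrrb, a nuclear receptor (0.77 ± 0.28, adjusted p = 0.537). At 120 h they belonged to Sco1, another copper chaperone (0.28 ± 0.13, adjusted p = 0.536), and to Esrrg (0.30 ± 0.10, adjusted p = 0.412).

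The larger contrast in the data was between early and late libraries, in SE and control mice alike. Transcripts of the 49 subunit genes made up 0.822% to 0.926% of all counts in the 9 late libraries (median 0.876%), against 0.463% to 0.664% in the 10 early ones (median 0.503%). By complex the late and early medians were 0.0750% and 0.0502% in II, 0.133% and 0.0779% in III, 0.222% and 0.109% in IV and 0.443% and 0.264% in V. All 9 late libraries were above all 10 early ones in 19 of 50 genes (38%, against 5.68% of all genes), among them Sdha, Sdhb, Uqcrh, Cox4i1, Cox7a2, Atp5b and Atp5l, and below them in 0 (against 5.52%). Cox7a2 had 123 to 164 CPM in the SE mice of 36 h and 120 h and 136 to 156 CPM in their controls, against 39.7 to 76.5 CPM in the SE mice of 1 h and 8 h and 36.5 to 63.8 CPM in their controls. The mitochondrially coded subunits went the other way, with 1.35% to 1.99% of counts in late libraries, against 1.82% to 4.92% in early ones. Nearly all of these counts were of mt-Cytb and mt-Co1, which had 13557 and 22101 CPM in control replicate 1 of 8 h. There mt-Co2, mt-Co3, mt-Atp6 and mt-Atp8 had 39.8, 21.8, 23.5 and 0.845 CPM, so the share says little about them. The SE mice of 8 h, at 1.82% and 2.01%, were at the late level and their controls, at 3.52%, 4.43% and 4.92%, were not. All late libraries share a batch that no early library has, so that time and batch cannot be told apart.

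**Figure D5:**
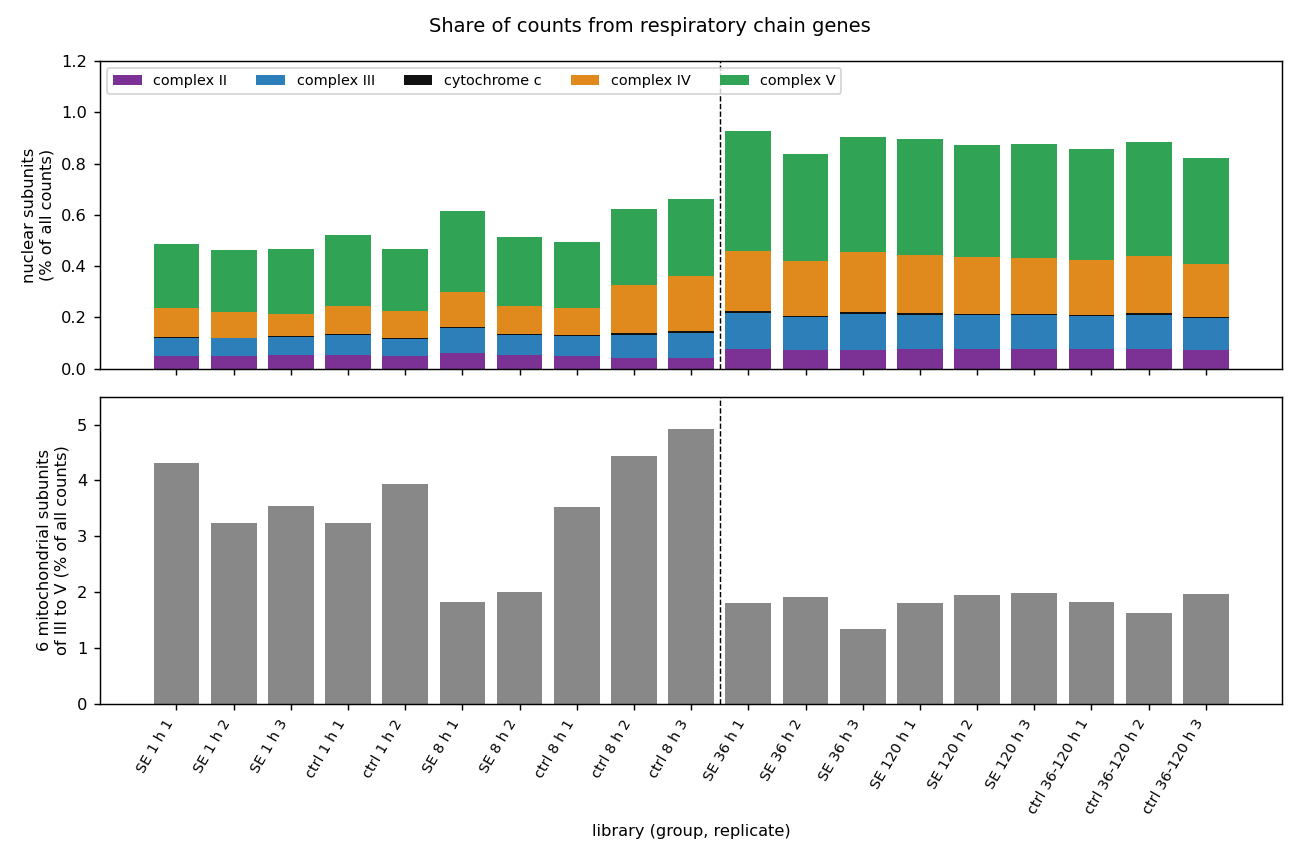
Percent of all counts in each library that fall on the nuclear subunit genes (bars stacked by complex) and on the 6 mitochondrially coded subunits, with the group and replicate of each library under its bar. Nearly all counts of the mitochondrially coded subunits are of mt-Cytb and mt-Co1. The dashed line separates the 10 libraries of 1 h and 8 h from the 9 of 36 h and 120 h. The nuclear share is 0.463% to 0.664% on the early side and 0.822% to 0.926% on the late side.

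Some values carry limits of counting. Cox7c, Cox6c, Cox5b, Uqcrh, Atp5k, Atp5l and Atp5f1 have pseudogenes named after them that can take or lend reads. The search by name asked for the full symbols of Cycs, Cyc1 and the complex II genes, so it could not find pseudogenes of these. Cox4i1 overlaps Gm20388 on the same strand, and Atp5b, Atp5c1 and Cox7c overlap small nucleolar RNAs or other genes. Atp5o, one of the 22 genes lower at 8 h with batch as a covariate, overlaps Cryzl1, Donson and U6 on the same strand.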

How the data were processed

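The members and gene lists were chosen with earlier results of these data known. The authors demultiplexed reads with bcl2fastq, trimmed them with BBDuk, aligned them with HISAT2 2.1.0 to NCBIM37 (mm9) and counted genes with HTSeq, and deposited raw counts per Ensembl gene of 19 libraries. Whether counting used the strand is not given in the sources used here. Symbols came from an Ensembl table of the same build, which named 33068 of 43629 identifiers, and promoters from RefSeq. The table has 8503816 to 28465548 counts per library.

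Each time was fitted on its own libraries with edgeR 4.0.16 (R 4.3.3), with TMM factors, filterByExpr and the quasi-likelihood test, adjusted over all genes tested by Benjamini-Hochberg at 0.05. Standard errors are the log2 fold change divided by the square root of F. Differences between times came from a fit of all 19 libraries in 7 groups. CPM were normalized by TMM over all libraries, and log2 CPM used a prior count of 1. Each library was taken as a separate mouse, and p-values measure the spread between libraries. Alternatives were the likelihood ratio test, DESeq2 1.42.0 (which also replaces TMM by its size factors), RLE factors, no filter, the joint fit, replicate number, choroid plexus score, sex or batch as a covariate, libraries of high score left out and each library left out. The fit without control replicates 2 and 3 of 8 h was added after seeing the data.

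Genes named were those that passed in any comparison, the 2 of smallest p of each complex at each time, the highest and lowest per length, the alternative forms, Atpif1, and the leading genes of each list. Genes singled out beside these by how their libraries lie (Atp5s, Atp5a1, Cox7a2 and those of the 8 h alternatives) were chosen after their values were seen. The fits were tested on simulated counts in which libraries differed by depth and by SE changes set for chosen genes. Batch and choroid plexus differences were not simulated, so that this test does not cover them.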

Additional observations from a re-analysis of the deposited data

Results flagged for a closer look

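The SE effect on Uqcrb differed between times by the test of the difference in edgeR's quasi-likelihood fit of all 19 libraries, with -1.09 ± 0.21 for 8 h minus 1 h (adjusted p = 0.0421) and 1.07 ± 0.19 for 36 h minus 8 h (adjusted p = 0.0346). The SE effect on mt-Cytb differed in the same test, with -1.71 ± 0.30 for 8 h minus 1 h (adjusted p = 0.0364). The 2 SE libraries of 8 h, both of batch G317, enter all 3 results, and what part batch has in them was not tested. For Uqcrb, leaving out any of 6 of 10 libraries ended the 8 h minus 1 h call, and leaving out any of 9 of 11 ended the 36 h minus 8 h call. Leaving out control replicates 2 and 3 of 8 h together ended both, and the choroid plexus score as a covariate ended the 36 h minus 8 h call (adjusted p = 0.0546). For mt-Cytb, which is not a nuclear gene, the alternative settings were not examined.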

How the results depend on the processing

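Counts of genes past the threshold are given by direction, with the percent of all genes in brackets. At 8 h the count was 0 by the quasi-likelihood test. It was 2 lower by the likelihood ratio test (0.397%), 2 lower by DESeq2 (0.48%), 10 lower without the filter (1.04%) and 3 lower in the joint fit (1.4%). With batch as a covariate it was 23, of which 22 were lower (7.54%) and 1 higher (5.98%). Without control replicates 2 and 3 it was 7, of which 6 were higher (1.64%) and 1 lower (1.38%). With each library left out it was 0 to 22, with 21 lower (7.72%) and 1 higher (5.71%) without control replicate 1. Without control replicates 2 and 3 the median at 8 h was 0.16, and Cox6c had 0.12, Cox7c 0.16, Cox6a2 0.11 and Cox6a1 0.065.

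At 36 h the count of 0 was 1 higher without the filter (Cox8b, 0.526%) and 0 to 2 with each library left out, with 2 higher without SE replicate 3 of 36 h (Cox8b and Cox6b2, 2.5%). Cox6b2 had -0.12 with the choroid plexus score and -0.32 without libraries of high score.

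For 8 h minus 1 h the count of 1 lower was 2 lower by the likelihood ratio test (0.482%) and 2 lower by DESeq2 (0.89%). Without the filter it was 8, of which 7 were lower (1.2%) and 1 higher (0.557%). It was 0 without control replicates 2 and 3 of 8 h, and 0 to 15 with each library left out, all 15 lower without control replicate 1 of 8 h (3.39%). Without control replicates 2 and 3 the median was 0.18, Cox6c 0.17, Cox6a1 0.15 and Usmg5 0.021.

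For 36 h minus 8 h the count of 1 higher was 2 higher by the likelihood ratio test (0.666%), 2 higher by DESeq2 (1.09%) and 14 higher without the filter (2.14%). It was 0 with the choroid plexus score and 0 without control replicates 2 and 3. With each library left out it was 0 to 22, with 21 higher (5.41%) and 1 lower (5.95%) without control replicate 1 of 8 h. Without control replicates 2 and 3 the median was -0.08, Cox6c -0.20, Cox6a2 -0.42, Atp5h -0.071 and Atp5l -0.21. The causes were not tested.

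Correlations of deviations from group means were -0.244 to 0.208 for libraries of the same replicate number and -0.272 to 0.250 for the others. With 2 or 3 libraries a group the deviations depend on one another, so they cannot decide whether replicate numbers pair the mice. With a replicate block the count at 8 h was 0 (0.122% of all genes were lower and 0.0769% higher) and the median -0.05. Depth and 2 or 3 mice a group limit the smaller differences. Leaving out libraries of high score was not run at 1 h and 8 h.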
